A study of Mus musculus with 88 samples.

Results

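Whole blood of untreated SNF1 mice was compared at week 12 and at week 2 of a course of 14 weeks, to describe how the blood transcriptome drifted with time in lupus-prone mice that received no pristane. The comparison held the 8 arrays labelled untreated at week 12 and the 8 arrays labelled untreated at week 2, so 16 of the 88 arrays of the series, and it covered every probe set that is not a control. Of 17097 genes, 12 rose and 23 fell at week 12 at an adjusted p under 0.05 (limma with Benjamini-Hochberg adjustment over all probe sets), and 4 of the rises, none of the falls, were larger than 2-fold. The 4 were Naip5, a cytosolic sensor that starts the inflammasome on bacterial flagellin, Wwtr1, the Hippo pathway coactivator TAZ, Csprs, a gene of the Sp100-rs family, and Spg11, which encodes the lysosomal protein spatacsin.

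SNF1 mice are a first-generation cross of SWR with NZB, in which females develop lupus nephritis as they age. The mice were female, and the week of the groups compared is counted from the time at which the treated mice received pristane. Pristane was given at 9 weeks of age. The untreated mice of week 12 were thus about 21 weeks old and those of week 2 about 11 weeks old. Neither group received an agent, and no allele beyond the strain is named for either. RNA of frozen whole blood was hybridised to Affymetrix HT MG-430 PM arrays, 1 array per sample. The labels give no cage, plate, batch or scan date, and 2 longitudinal experiments were run with this model, so week and batch cannot be told apart. The labels do not say whether a mouse was bled at more than 1 week. The limma p-values rest on the spread among arrays within a group, pooled over the 11 groups of the series. The 11 groups include 8 arrays labelled untreated at week 36. The paper describes SNF1 mice of 36 weeks of age with spontaneous disease, so week 36 is read here as age.

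Blood of lupus-prone mice changes before kidney disease appears. Monocytes shift towards the patrolling (Ly6C-low) form, interferon-induced genes and MHC genes can rise, B cells are activated, and immature neutrophils and red cell precursors leave the marrow in larger numbers. In whole blood RNA such changes mix with those within cells: a lower signal from fewer cells of a type and a lower signal from less RNA per cell cannot be told apart.

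Signals are log2 values after robust multi-array averaging (RMA), so a difference of 1 is a 2-fold change. The signals ran from 0.736 to 13.75 with a median of 3.89, and the number of arrays limits the precision. As a check of the labelled tissue, the 15 measured late erythroid and globin genes averaged 10.37 to 11.36 on the week 12 arrays and 10.26 to 11.46 on the week 2 arrays. The 14 measured markers of tissue macrophages averaged 3.79 to 4.05 at week 12 and 3.84 to 4.07 at week 2, and levels of different probe sets are not compared. The arrays of the 2 weeks did not have the same distribution of signals. The array median was lower at week 12 (3.88 ± 0.05) than at week 2 (3.95 ± 0.03; SD, n = 8 arrays each), by 0.067 (exact permutation test, two-sided, p = 0.00109). The interquartile range of an array averaged 3.30 ± 0.18 at week 12 and 3.15 ± 0.12 at week 2 (exact permutation test, two-sided, p = 0.0642), and replicate 1 of week 12 (3.68) and replicate 5 of week 2 (3.41) had the widest range of their groups.

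Few genes passed the test. The 4 genes over 2-fold were 0.0234% of the genes tested, and the 35 genes at the adjusted p were 0.205%, with 0.0702% higher and 0.135% lower. At an unadjusted p under 0.05, 963 genes were higher (5.63%) and 1279 lower (7.48%), and the median change of all genes was -0.01 on the log2 scale. Whatever their p, 24 genes were more than 2-fold higher at week 12 and 0 were more than 2-fold lower (limma). The balance of directions depended on the scaling and on the arrays in the fit. It was 12 higher and 23 lower as deposited, 16 higher and 8 lower when each array was centred on its median, and 20 higher and 8 lower in a fit of the 16 arrays alone, which kept 7 of the 35 genes. The count depended on single arrays. It was 4, 7, 8, 11 and 65 genes without replicate 1, 5, 6, 7 or 8 of week 12, and 13, 23, 12, 67, 12 and 75 genes without replicate 1, 2, 4, 5, 6 or 8 of week 2. The count of genes over 2-fold was 1, 2, 1, 2, 2 and 11 without replicate 1, 2, 5, 6, 7 or 8 of week 12, and 1, 2, 2, 8 and 12 without replicate 1, 2, 4, 5 or 8 of week 2.

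**Figure D1:**
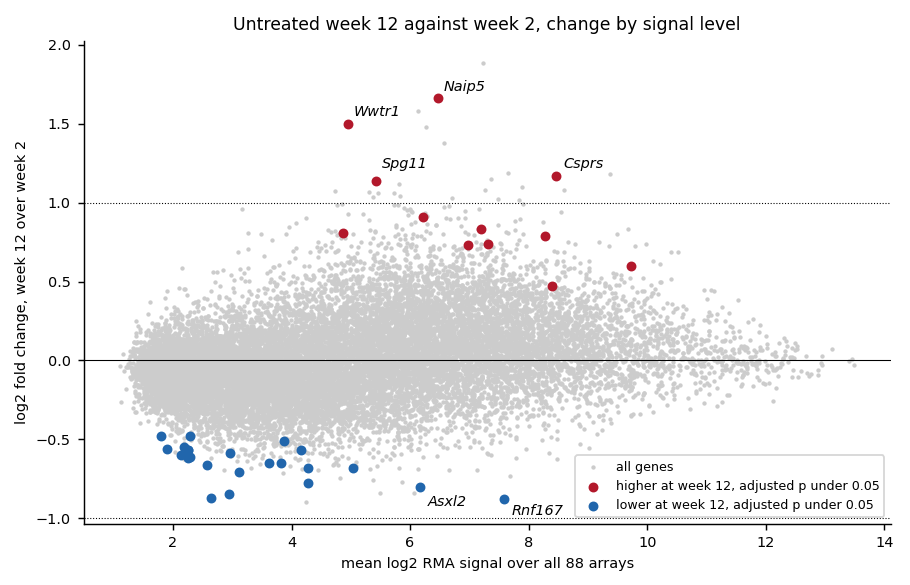
Change by signal level in untreated blood. Each point is 1 of 17097 genes, with its mean log2 signal over all 88 arrays on the horizontal axis and its log2 fold change, week 12 over week 2, on the vertical axis. Red points are the 12 genes that were higher and blue points the 23 that were lower at an adjusted p under 0.05, and dotted lines mark a 2-fold change. The 12 higher genes lie at mean signals of 4.86 to 9.73, while 17 of the 23 lower genes lie below 3.89.

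Naip5 showed the largest rise among the genes that passed. Its signal ran from 5.50 to 7.72 with a median of 6.79 at week 12, and from 4.14 to 5.88 with a median of 5.01 at week 2. On 7 of the 8 week 12 arrays the signal lay above that of every week 2 array. The change was 3.15-fold (95% confidence interval 1.84 to 5.40, limma adjusted p = 0.0377). Naip5 has 1 probe set on the array and near-identical copies in the mouse genome, so the share of its paralogs in this signal is uncertain.

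Wwtr1 ran from 4.47 to 5.87 with a median of 5.04 at week 12, and from 2.44 to 4.34 with a median of 3.87 at week 2. The groups did not overlap, which was so for 29 of all 17097 genes (0.17%) and for 5 of the 35, and the change was 2.84-fold (1.81 to 4.45, limma adjusted p = 0.0223). It was carried by 1 of 3 probe sets. The others changed by 0.14 and 0.11 on the log2 scale, and the mean of all 3 sets gave 0.58 with an adjusted p of 0.126, the highest of the range of 0.00649 to 0.126 over all alternatives.

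Csprs ran from 7.76 to 8.63 with a median of 8.37 at week 12, and from 6.33 to 7.49 with a median of 7.25 at week 2. The groups did not overlap, and the change was 2.25-fold (1.61 to 3.14, limma adjusted p = 0.0150). A second probe set of Csprs changed by 0.85 (adjusted p = 0.059) and another, dim one by 0.07. Csprs belongs to a repeated gene cluster in mice, so its copies may share this signal. Csprs passed without each of the 16 arrays in turn, and under 28 of 29 alternatives in all, against 18 of 29 for Naip5 and 17 of 29 for Spg11.

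Spg11 ran from 4.99 to 6.21 with a median of 5.76 at week 12, and from 3.91 to 6.01 with a median of 4.37 at week 2. The overlap came from replicate 5 of week 2 alone, whose signal of 6.01 stood far above the next highest week 2 value of 4.84. The change was 2.20-fold (1.53 to 3.17, limma adjusted p = 0.0377), and the other probe set of Spg11 changed by -0.45 (adjusted p = 0.472).

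**Figure D2:**
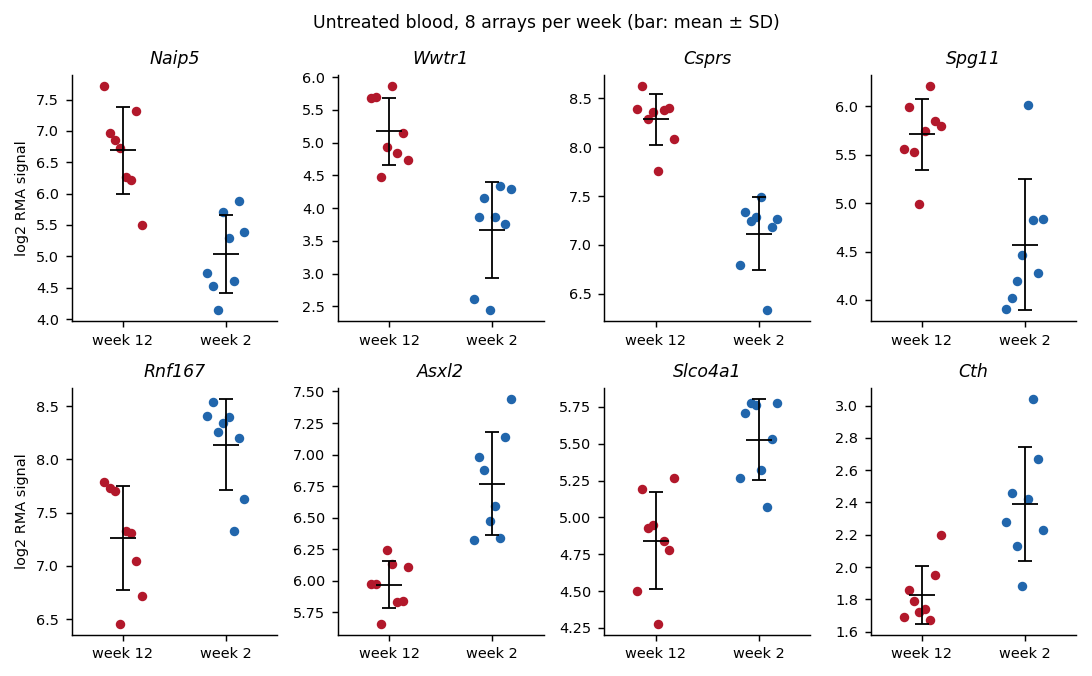
Log2 RMA signal of 8 genes on each array of untreated blood, week 12 in red on the left and week 2 in blue on the right of each panel, with 8 arrays per week. The bar is the mean and its error bar the SD. Wwtr1, Csprs and Asxl2 do not overlap between the weeks, while 1 array of week 2 reaches 6.01 for Spg11.

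There were 8 smaller rises. Ciao2b, a component of the machinery that delivers iron-sulfur clusters to cytosolic and nuclear proteins, ran from 7.40 to 8.05 with a median of 7.54 at week 12 and from 6.48 to 7.35 with a median of 6.86 at week 2, with no overlap. Its change was 1.68-fold (1.30 to 2.15, limma adjusted p = 0.0435). Dbi, the acyl-CoA binding protein, ran from 8.00 to 8.59 with a median of 8.45 at week 12 and from 7.46 to 8.16 with a median of 8.03 at week 2, and 7 of 8 week 12 arrays were above every week 2 array. Dbi rose 1.38-fold (1.20 to 1.60, adjusted p = 0.0331), and its 3 other probe sets changed by 0.48, 0.26 and 0.18 on the log2 scale. Ywhaq, the 14-3-3 theta adaptor, rose 1.51-fold (adjusted p = 0.0377), and its 4 other probe sets changed by 0.22 to 0.58. The rest were Pced1a (1.88-fold), the repeat protein Ttc9c (1.78-fold), the monocarboxylate transporter family member Slc16a5 (1.76-fold), the arrestin-domain adaptor Arrdc3 (1.73-fold) and Tut1 (1.66-fold), which adds uridines to the U6 small nuclear RNA, at adjusted p of 0.0331 to 0.0444. The 2 other probe sets of Ttc9c changed by -0.06 and -0.29, and the mean of its sets gave 0.16 (adjusted p = 0.702, the highest of a range of 0.00556 to 0.702 over all alternatives). Across the 7 risen genes with more than 1 probe set, 12 of 15 other sets were also higher at week 12 and 0 passed the test.

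The falls were smaller, from -0.48 to -0.88 on the log2 scale, and most were of genes with little signal in blood. The 12 risen genes had mean signals over all arrays of 4.86 or more. Of the 23 fallen genes, 17 lay below the median signal of 3.89, against 37.8% of all genes, and the median of their means was 2.95. All but Asxl2 and Mre11a were read by 1 probe set. The array median was also lower at week 12. The median change of the 23 genes was -0.62 as deposited, -0.55 with arrays centred on their median, where 8 of the 23 passed, and -0.54 after quantile normalization, where 10 passed.

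Among the brighter falls, Rnf167, an E3 ubiquitin ligase of endosomes and lysosomes, ran from 6.46 to 7.79 with a median of 7.32 at week 12 and from 7.33 to 8.54 with a median of 8.30 at week 2. The groups overlapped through replicates 6 and 8 of week 2. Rnf167 was 1.84-fold lower (1.43 to 2.36, limma adjusted p = 0.0150) and passed without each of the 16 arrays in turn. Asxl2, a chromatin regulator that works with Polycomb proteins, ran from 5.66 to 6.24 with a median of 5.97 at week 12 and from 6.32 to 7.44 with a median of 6.73 at week 2, with no overlap, and was 1.74-fold lower (1.35 to 2.25, adjusted p = 0.0364). It was read by 5 probe sets, and the 4 others changed by 0.41, 0.12, -0.17 and -0.33 without passing. Slco4a1, an organic anion and thyroid hormone transporter, ran from 4.28 to 5.27 with a median of 4.89 at week 12 and from 5.07 to 5.78 with a median of 5.62 at week 2, and was 1.61-fold lower (1.32 to 1.96, adjusted p = 0.0150).

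Gpx3, the secreted glutathione peroxidase, was 1.72-fold lower (1.33 to 2.21, adjusted p = 0.0377), with signals of 2.95 to 4.57 at week 12 and 4.24 to 5.26 at week 2. Mre11a, a nuclease of DNA double-strand break repair, was 1.60-fold lower by 1 probe set (adjusted p = 0.0436), and its other set changed by 0.42 on the log2 scale. The smallest adjusted p of the comparison, 0.00532, was that of Cth, cystathionine gamma-lyase of cysteine synthesis, which ran from 1.67 to 2.20 with a median of 1.76 at week 12 and from 1.88 to 3.04 with a median of 2.35 at week 2. These are signals near the bottom of the array's range, and the fall of Cth was 1.48-fold (1.29 to 1.69).

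Other fallen genes are known for roles outside blood: Dnah1, an axonemal dynein heavy chain (1.83-fold lower), Psg18, a pregnancy-specific glycoprotein of the placenta (1.80-fold lower), and Otoa, an inner ear protein (1.58-fold lower), whose week 12 arrays (1.92 to 2.72) did not overlap those of week 2 (2.75 to 3.62). Ackr4, an atypical receptor that takes up homing chemokines of lymphocytes, was 1.51-fold lower (adjusted p = 0.0360), with 2.41 to 3.21 at week 12 and 2.96 to 3.68 at week 2. Serinc2, Tmem247, the acyl-CoA synthetase Acsm5, the co-chaperone Dnajc12 and the cyclic GMP phosphodiesterase Pde9a were 1.64, 1.57, 1.54, 1.53 and 1.52-fold lower. Smaller falls, from 1.39 to 1.49-fold, were those of Plk3, a stress-activated polo-like kinase, the cytokine gene Il1a, Prcd, Fbxo43, Ankrd45 and 2 genes without an established name. Cth and these genes other than Il1a lie outside the 15 largest falls and were named after their values were seen.

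The weeks between were read to describe the course of the change. The same week 12 and week 2 arrays chose the genes and scale the shares below. Other weeks can fall between week 2 and week 12 through that choice alone, so the shares do not test whether the change was gradual. For the 12 rises the median share of the change reached was 48% at week 4 and 60% at week 8, with a range over the genes of 6 to 90% and 52 to 96%. Csprs averaged 7.12, 7.19, 7.94, 8.29 and 8.92 in untreated blood at weeks 2, 4, 8, 12 and 14, and Naip5 averaged 5.03, 5.38, 6.63, 6.69 and 7.44. Both thus lay higher at each later week. Wwtr1 averaged 3.67, 4.51, 5.07, 5.17 and 5.43, with 93% of its rise reached by week 8.

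For the 23 falls the median share reached was 60% at week 4 and 72% at week 8, with a range of -9 to 102% and 23 to 94%. At least 75% of the change was in place at week 4 for 2 of the rises and 4 of the falls, and at week 8 for 3 and 10. Cth averaged 2.39, 1.82, 1.96, 1.83 and 1.78 at weeks 2, 4, 8, 12 and 14, so its whole fall (102%) was in place at week 4. For 22 of the 23 falls the untreated week 2 group had the highest mean of all 11 groups, the week 36 group included. This was so for 15.2% of all genes. For 11 of the 12 rises the untreated week 2 group had the lowest mean (10.5% of all genes). Untreated week 12 had the lowest mean of the 11 groups for 8 falls and the highest for 3 rises. These shares rest on the same week 2 arrays that chose the genes and describe them only. Csprs had reached 6% of its rise to week 12 at week 4 and 70% at week 8. For Naip5 these shares were 21 and 96%, so little of its rise to week 12 came after week 8. Cth lay apart at week 2 and between 1.78 and 1.96 at later weeks.

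**Figure D3:**
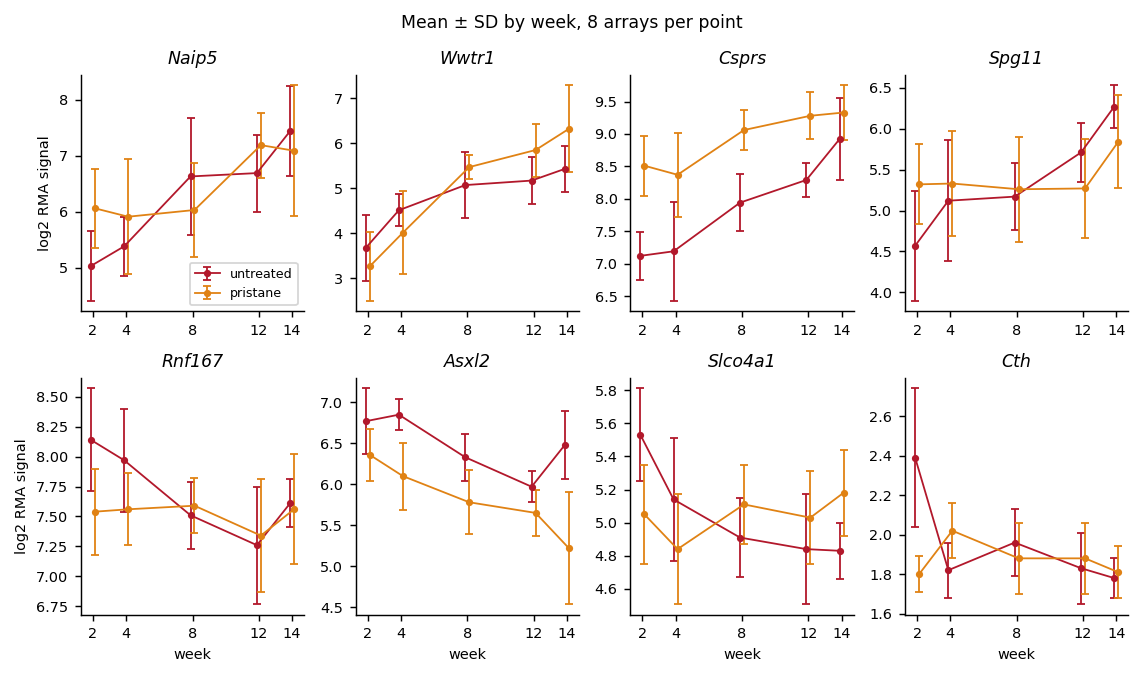
Mean log2 RMA signal by week in untreated (red) and pristane-treated (orange) mice for 8 of the 35 genes, with the SD as error bar and 8 arrays per point. Csprs and Naip5 are higher at each later untreated week, whereas Cth is high at untreated week 2 alone (2.39, against 1.78 to 1.96 at later weeks).

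A second pair of untreated weeks lying 10 weeks apart, week 14 against week 4, shares no array with week 12 against week 2 and was added after the first results were seen. It had many more changes, with 1279 genes higher (7.48%) and 1589 lower (9.29%) at the adjusted p. Whatever their p, 42.5% of all genes were higher at week 14. The interquartile range of an array averaged 3.53 at week 14 and 3.19 at week 4. With that range as covariate 124 genes passed, and with a score of the late erythroid genes 112 passed. Of the 12 risen genes, 11 were also higher at week 14 than at week 4 and 6 passed the test: Csprs (log2 change 1.74, adjusted p = 1.89e-06), Naip5 (2.07), Spg11 (1.15), Wwtr1 (0.92), Ywhaq (0.42) and Dbi (0.38). Slc16a5 was lower (-0.29, adjusted p = 0.29). Of the 23 fallen genes, 20 were also lower and 2 passed, Ackr4 (-0.48, adjusted p = 0.0137) and a gene without an established name (-0.38). In that pair red cell genes moved as well: 12 of the 15 measured late erythroid and globin genes fell, with a median of -0.79, against -0.07 and 0 of 15 in week 12 against week 2. With an erythroid score as covariate, Csprs (1.38, adjusted p = 0.000969) and Naip5 (1.57, adjusted p = 0.044) still passed in week 14 against week 4. Wwtr1 (0.66), Spg11 (0.65), Dbi (0.33), Ywhaq (0.21) and Ackr4 (-0.34) kept their direction and did not pass. With the interquartile range as covariate, Csprs (1.19, limma adjusted p = 0.000408) and Naip5 (1.40, adjusted p = 0.048) passed. They were the only 2 of the 12 risen genes to do so, and 0 of the 23 fallen genes passed.

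Week 8 against week 4 is also free of shared arrays. There 7 genes passed, all higher at week 8 (0.0409% of genes tested), and none was among the 35. They were Adgre1, the macrophage antigen F4/80, Cybb, the catalytic subunit of the phagocyte oxidase, the Fc receptor gene Fcgr4, Pik3r6, Mgst1, Plac8 and Zbp1. These genes were chosen after their values were seen. In week 12 against week 2, Adgre1 ran from 5.60 to 6.60 at week 12 and from 4.64 to 5.77 at week 2, a log2 change of 0.97 (limma adjusted p = 0.116). Cybb changed by 0.61 (adjusted p = 0.277), Fcgr4 by 1.19, Pik3r6 by 0.46, Mgst1 by 0.44, Plac8 by 0.18 and Zbp1 by -0.09. Of the 7, 6 were higher at week 12, where 47.2% of all genes were higher, and none passed the test.

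The same weeks in pristane-treated mice use separate arrays. There 165 genes rose (0.965%) and 46 fell (0.269%). Wwtr1 rose again (log2 change 2.59, adjusted p = 4.07e-07) and Asxl2 fell again (-0.70, adjusted p = 0.0347), and none of the others among the 35 passed. Csprs changed by 0.77 (adjusted p = 0.0969) and Naip5 by 1.13 (adjusted p = 0.16). In pristane-treated blood 6 of the 12 risen genes were higher and 9 of the 23 fallen genes lower at week 12, and 50.3% of all genes were higher. The median change of the 23 fallen genes was 0.03 with pristane. The difference between the pristane and the untreated change was tested directly, and 1 gene passed (0.00585%). It was Cxcr3, a chemokine receptor of effector T cells, named after its values were seen. With pristane Cxcr3 ran from 6.41 to 8.35 at week 12 and from 5.32 to 6.20 at week 2, a log2 change of 1.66. In untreated blood it ran from 6.11 to 7.07 at week 12 and from 5.97 to 7.26 at week 2, with a 95% confidence interval of the change of -0.47 to 0.47. The difference between the changes was itself 1.66 (95% confidence interval 1.0 to 2.31, limma adjusted p = 0.0433). None of the 35 genes passed this test of the difference, and Cth came closest (adjusted p = 0.0681).

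**Figure D4:**
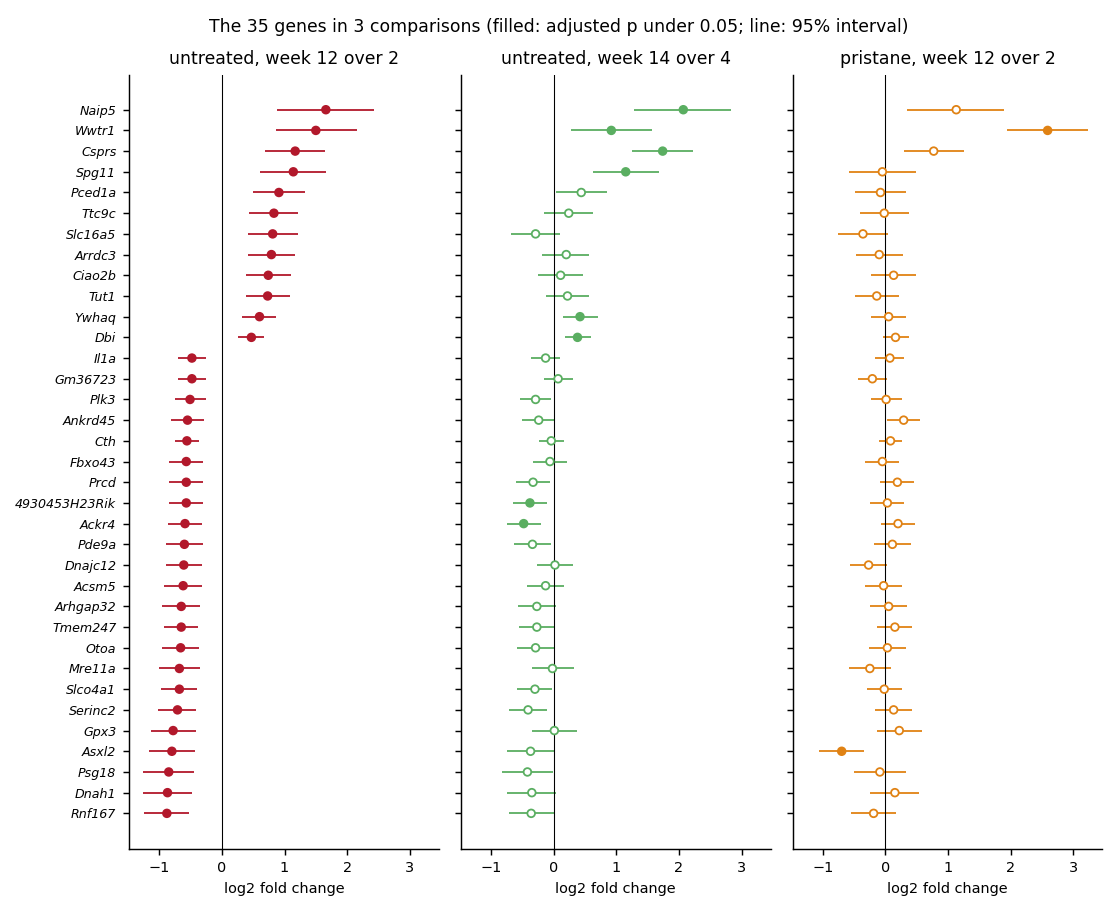
Log2 fold change with its 95% confidence interval for the 35 genes in untreated week 12 over week 2 (red, left panel), untreated week 14 over week 4 (green, middle) and pristane week 12 over week 2 (orange, right). Filled points passed at an adjusted p under 0.05. The green and orange comparisons share no array with the red one, and 6 of the 12 rises but 2 of the 23 falls are filled in green.

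Genes were next read by 48 lists of cell type markers, immune pathways and basic processes. Of 910 measured list genes, 1 passed the test, where 0.205% of all genes passed. It was Il1a of the inflammatory cytokine and inflammasome list. Its signals fell, with 1.45 to 1.76 at week 12 and 1.61 to 2.85 at week 2. At an unadjusted p under 0.05, 67 list genes were higher (7.36%, against 5.63% of all genes) and 27 lower (2.97%, against 7.48% of all genes). All genes were not matched to the list genes in signal level, and 17 of the 23 falls that passed lay below the median signal. With arrays centred on the 5000 brightest probe sets, the patrolling monocyte, MHC class I and interferon medians were 0.39, 0.24 and 0.01. As deposited they were 0.48, 0.33 and 0.10. The list medians lay between -0.17 and 0.48, and 30 of the 48 lay within 0.1 of 0. In pristane week 12 against week 2, where 0.965% of all genes rose and 0.269% fell, 24 of the lists had a member that passed. The count was 45 lists in untreated week 14 against week 4, where 7.48% of all genes rose and 9.29% fell. The counts of lists thus differ as the shares of all genes do, and no list was tested as a whole.

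The list furthest from 0 was that of patrolling monocytes, cells that survey the vessel wall. None of its 14 measured members passed, and its median was 0.48, against -0.01 for all genes. Whatever their p, 11 members were higher and 3 lower, where 47.2% of all genes were higher. At an unadjusted p under 0.05, 6 were higher and 0 lower, against 5.63% and 7.48% of all genes. Csf1r, the receptor for the monocyte growth factor, ran from 5.94 to 8.13 with a median of 6.57 at week 12 and from 5.26 to 6.10 with a median of 5.80 at week 2, so that 7 of 8 week 12 arrays exceeded every week 2 array. Its log2 change was 0.98 (0.34 to 1.61, limma adjusted p = 0.145). Treml4, a receptor of these monocytes, changed by 0.99 (adjusted p = 0.193), the adhesion receptor Adgre4 by 0.90, the fractalkine receptor Cx3cr1 by 0.60 and the integrin Itgal by 0.47. The mean of the list was not evenly raised. On the 8 week 12 arrays it was 7.33, 6.98, 6.07, 6.67, 6.03, 5.83, 6.56 and 5.69 for replicates 1 to 8, against 5.78 to 6.08 on the week 2 arrays. Thus 4 week 12 arrays lay above all of week 2 and 4 lay within or below it. The highest, replicate 1, is also the array with the widest interquartile range, and without it the median was 0.36 with 4 members higher at the unadjusted p. The list mean averaged 5.94, 5.88, 6.58, 6.39 and 7.14 at untreated weeks 2, 4, 8, 12 and 14, and its median change was 0.85 with pristane and 1.49 in week 14 against week 4, where 2 and 11 members rose.

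Single genes of other myeloid lists were higher at week 12 without passing. The list median was 0.07 for classical monocyte genes, -0.03 for complement and Fc receptor genes, of which 10 of 18 were lower, and -0.08 for tissue macrophage genes, of which 10 of 14 were lower. Fcgr4, the activating IgG receptor of patrolling monocytes and neutrophils, changed by 1.19 (adjusted p = 0.109), with 6.20 to 9.11 at week 12 and 4.60 to 6.93 at week 2. Fpr2, a formyl peptide receptor of neutrophils, changed by 1.18 (adjusted p = 0.0609), with 8.16 to 9.96 at week 12 and 7.03 to 8.99 at week 2. The largest change of all genes was that of Ms4a6d, a monocyte and macrophage membrane protein, which was named after its values were seen. It ran from 5.25 to 8.64 at week 12 and from 3.93 to 5.57 at week 2, a log2 change of 1.89 (limma adjusted p = 0.0591). Of the 16 measured mature neutrophil genes, 12 were higher, against 47.2% of all genes, and the median was 0.20, or 0.04 with the interquartile range as covariate, 0.11 with arrays centred on the brightest probe sets and 0.09 without replicate 6 of week 2. The granule genes of immature neutrophils had a median of 0.21, with 10 of 13 higher and 3 lower. Ltf was at 1.15, Ngp at 0.88, Cd177 at 0.54 and Prtn3 at -0.27. Within the lysosome list (median 0.13), the protease gene Ctss changed by 0.49 (adjusted p = 0.0959) and the macrophage glycoprotein gene Cd68 by 0.86 (adjusted p = 0.148). The inflammatory list held opposite signs. Casp4, the gene of the caspase that senses cytosolic lipopolysaccharide, changed by 1.03 (adjusted p = 0.0858), Casp1 by 0.59 and Il1b by 0.45.

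All 11 measured genes of the MHC class I and immunoproteasome list were higher at week 12, with a median of 0.33, and 4 reached an unadjusted p under 0.05, where 47.2% of all genes were higher and 5.63% were higher at that p. They were H2-D1 (0.38), the proteasome activator Psme1 (0.44), the loading factor Tapbp (0.33) and the class I transactivator Nlrc5 (0.53), at adjusted p of 0.164 to 0.342. The list mean of 6 of the 8 week 12 arrays (8.43 to 9.29) lay above all week 2 arrays (8.44 to 8.94). With the array's interquartile range as a covariate the median was 0.14, and averaging all probe sets of a gene gave 0.07. MHC class II genes had a median of -0.02, with the class II transactivator Ciita at -0.53 (adjusted p = 0.232). Interferon-induced genes had a median of 0.10, and Dhx58, a cytosolic RNA helicase, at 0.89 (adjusted p = 0.143) and Usp18, the ISG15 protease, at 0.60 did not pass.

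Lymphoid and red cell lists had medians near 0 as deposited, but with the interquartile range of the array as covariate the median was -0.20 for B cell genes, -0.28 for T cell genes, with 4 of 17 lower at an unadjusted p under 0.05, and 0.12 for late erythroid genes. The median was 0.01 for B cell genes, with Vpreb3 at -0.55 (adjusted p = 0.253), and -0.08 for T cell receptor and coreceptor genes, with Cd3e at 0.30 and Cd28 at -0.44. The list mean of B cell genes ran from 7.82 to 8.56 at week 12 and from 8.14 to 8.77 at week 2, and the groups overlapped. Genes of naive lymphocytes and their exit from lymphoid organs had the lowest median, -0.17. Among them the egress receptor S1pr1 was at -0.45 (adjusted p = 0.472). The natural killer and cytotoxic list had a median of -0.06, with 6 members higher and 10 lower. Its members included Eomes at -0.56 (adjusted p = 0.242) and Prf1 at 0.24. Eomes is also in the effector and memory T cell list, which had a median of 0.08 with 9 of 15 higher. In the list of T cell checkpoint and regulatory genes, which had a median of -0.01 with 9 of 17 members lower, the ectonucleotidase gene Nt5e (CD73) changed by 0.74 (adjusted p = 0.12) and Bcl6 by 0.52. The median was -0.07 for late erythroid genes, with the heme synthesis enzyme Alas2 at -0.09, and 0.18 for platelet genes, with the collagen receptor Gp6 at 0.54 (adjusted p = 0.317).

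Among lists of basic processes, heat shock and chaperone genes had a median of 0.18 with 14 of 18 higher. Mitochondrial ribosome genes had a median of 0.15 with 38 of 53 higher, where 47.2% of all genes were higher. Other such lists lay closer to 0. Cytosolic ribosomal protein genes had a median of 0.02 over 68 members, and oxidative phosphorylation genes a median of 0.01 over 51, with members of both signs. Ndufb5, a subunit of respiratory complex I, ran from 8.17 to 9.07 at week 12 and from 7.49 to 8.00 at week 2 without overlap and changed by 0.88 (limma adjusted p = 0.0609). Cox7c, a subunit of cytochrome oxidase, ran from 8.18 to 8.66 at week 12 and from 8.59 to 9.45 at week 2 and changed by -0.62 (adjusted p = 0.0553). The splicing factor list had a median of 0.09 with Prpf4 at 0.67 and Son at -0.59, and the cholesterol and fatty acid synthesis list 0.15 with the sterol enzymes Dhcr7 at 0.71 (adjusted p = 0.132) and Cyp51 at 0.73 (adjusted p = 0.205). Myc was at -0.67 (adjusted p = 0.103), and the clock genes Ciart (-0.37) and Per2 (-0.45) were lower without passing, in a list with a median of -0.01. The labels give no hour of blood collection.

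**Figure D5:**
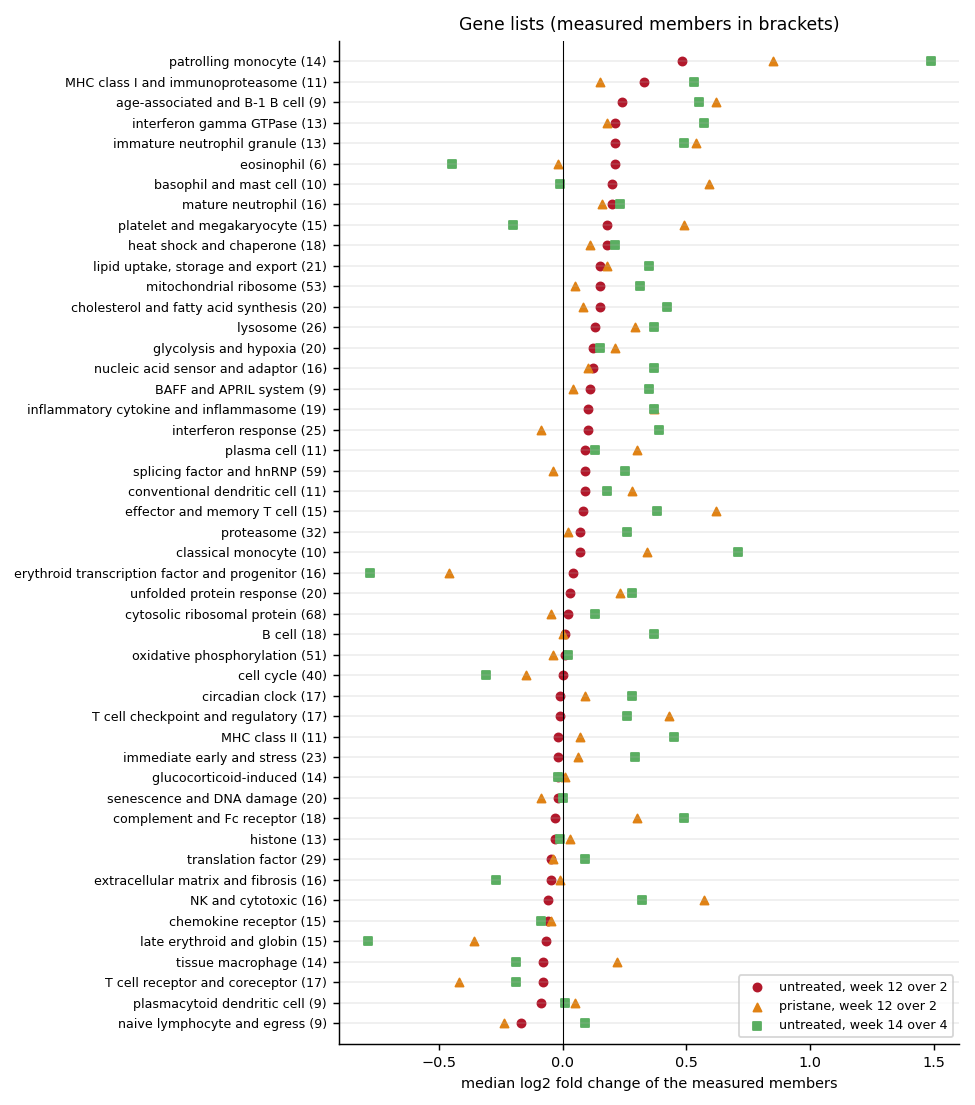
Median log2 fold change of the measured members of 48 gene lists in untreated week 12 over week 2 (red circles), pristane week 12 over week 2 (orange triangles) and untreated week 14 over week 4 (green squares), with the number of members in brackets. The red circles run from -0.17 to 0.48, and the patrolling monocyte list is the highest in all 3 comparisons.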

How the data were processed

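The authors stabilised frozen whole blood in Trizol, purified and DNase-treated the RNA on RNeasy columns, labelled it with NuGEN reagents and hybridised it to HT MG-430 PM arrays. The deposited values are log2 signals that the authors made by RMA (the submitters' processing notes name RMA and Partek, with no version), and they were used as deposited. The values of 45037 probe sets remained after 104 controls were left out. The platform annotation gave 1 gene for 28898 of these, several for 551 and none for 15588, and 28689 symbols were updated through the Entrez ID. A gene was represented by its single-gene probe set of highest mean over the 88 arrays (17097 genes).

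A model of 11 group means on all 88 arrays was fitted with limma 3.58.1 in R 4.3.3, with Benjamini-Hochberg adjustment over all 45037 probe sets. Genes passed at an adjusted p under 0.05, and larger changes were those over 2-fold. The model was also tested on simulated data. Named genes were the 15 largest rises and falls among those that passed and, within every list, the 4 genes whose moderated t was furthest from 0, with exceptions marked where they stand. A result of 1 further fall under this rule is not reported here. Members and gene lists were chosen with earlier results of these data known. Alternatives were the arrays in the fit, scaling, a filter on dim probe sets, covariates, the variance prior, array weights, a replicate block, the probe set rule and leaving out each array. Week 14 against week 4, the array median and the removal of the arrays of widest range were chosen after seeing the data.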

Additional observations from a re-analysis of the deposited data

Results flagged for a closer look

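Among the 8 arrays of a week, single values that stood apart from the rest by Dixon's criterion were found in 11 of 166 sets of gene values and 1 of 4 sets of array measures. Chance gives such a value in about 1 in 20 groups. At week 12 they were Slc16a5 in replicate 5 (6.43), Otoa in replicate 1 (1.92), and Serinc2 (3.62) and Nt5e (5.57) in replicate 8. At week 2 they were Spg11 in replicate 5 (6.01), Ttc9c in replicate 6 (7.41), Slc16a5 in replicate 7 (3.30), Il1a in replicate 4 (2.85), Dhx58 in replicate 1 (3.15), Fpr2 in replicate 8 (8.99) and S1pr1 in replicate 5 (7.94). The array interquartile range of week 2 replicate 5 (3.41) also stood apart, and the Spg11 and S1pr1 values come from that array.

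The change between week 12 and week 2 differed between pristane-treated and untreated mice for Cxcr3, by 1.66 on the log2 scale (limma adjusted p = 0.0433 for the difference). At an unadjusted p under 0.05, 1540 of 17097 genes differed. Part of such a count arises by chance, and only Cxcr3 (0.00585% of genes) passed at the adjusted p.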

How the results depend on the processing

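None of the 35 genes reversed its direction under any of up to 29 alternatives, but the counts moved. The 35 genes became 28 in a fit of the groups compared alone (20 higher and 8 lower, 7 of the 35 kept), 60 in a fit of the 40 untreated arrays, 20 after quantile normalization, 64 with arrays centred on the 5000 brightest probe sets, 8 with dim probe sets left out (20 of the 35 were then not tested), 75 with an erythroid score as covariate, 358 with array weights and 5 without the widest-range array of each week (week 12 replicate 1 and week 2 replicate 5). The fit of the untreated arrays left out the arrays labelled untreated at week 36. Leaving out 1 array gave 4 to 75, as given by array above. The 4 genes over 2-fold became 8 with the 40 untreated arrays, 2 with the interquartile range as covariate, 8 with the erythroid score, 21 with array weights, 1 with the mean of all probe sets and 2 without the widest-range arrays, and 1 to 12 without 1 array. With a replicate block 84 genes passed and all 35 were kept, but the numbers did not pair the week 12 arrays with the week 2 arrays. The deviations of same-numbered arrays correlated at -0.12 to 0.13, and 2 of 8 arrays correlated best with their own number. Across the series the number was not free of pattern. Replicate 8 had the narrowest interquartile range of its group at untreated weeks 4 (2.85), 12 (3.10) and 14 (3.09), but not at untreated weeks 2 and 8. It was also the narrowest at pristane weeks 2 (2.77), 4 (2.79) and 8 (2.74) and at week 36 (3.02), but not at pristane weeks 12 and 14. The cause of the moves in the counts was not tested.

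The 7 genes of week 8 against week 4 became 0 in a fit of those groups alone, 1 with the 40 untreated arrays, 11 after quantile normalization, 4 with median centring, 4 with the erythroid score and 2 with array weights. The 1 gene whose change differed with pristane became 0 with only the groups compared and with median centring, 2 with quantile normalization, brightest-set centring and the dim filter, 3 with the mean of all probe sets, 5 with the replicate block, 23 with the interquartile range, 32 with the erythroid score and 26 with array weights. In week 14 against week 4, 492 genes over 2-fold became 58 with the interquartile range and 59 with the erythroid score. The difference in interquartile range (0.148) was 0.094 to 0.185 without 1 array, and passed 0.05 in an exact permutation test without week 12 replicate 8 (p = 0.0295) or week 2 replicate 5 (p = 0.00653). As SD it was 0.054 (exact permutation p = 0.0312) and as the range from the 10th to the 90th percentile 0.160 (p = 0.0334).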
